A study of Mus musculus with 5 samples.

Results

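Medullary thick ascending limb nuclei are those of the deep, inner stretch of the thick ascending limb, the salt-reabsorbing last segment of the loop of Henle. They were chosen by transcript counts among barcodes with at least 200 detected genes in 5 single-nucleus libraries of mouse kidney. A nucleus was taken when it held at least 2 unique molecular identifiers (UMIs, counted transcripts) of Slc12a1, the apical sodium-potassium-chloride cotransporter. Its summed UMIs of Tmem207, Pcsk6, Ptger3, Prox1 and Sgcz also had to be at least 1 and above those of the cortical genes Enox1, Casr, Cldn16 and Egf. Nuclei with 2 or more UMIs of the distal transporter gene Slc12a3, or with any UMI of the injury gene Lcn2, were left out. The rule found 532 of 16359 nuclei. The same rule with the sums exchanged gave 1021 cortical thick limb nuclei, which serve for comparison. How many nuclei were taken, and the levels of these 12 genes, therefore describe the rule and are not tested.

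All libraries came from kidneys of male mice, 10 to 12 weeks old, that carried Six2-TGC, Rosa26rtTA and pTRE-H2BeGFP and ate doxycycline food (625 mg/kg). Six2-TGC is active in nephron progenitors, so the green histone (GFP) marks nuclei that descend from them. GFP positive nuclei gave 1 library each from uninjured kidneys and from kidneys 64 h, 96 h and 28 d after both renal pedicles had been clamped (ischaemia-reperfusion injury, IRI). A further library held GFP negative nuclei of uninjured kidneys. Both libraries without injury carry the same serum values, so they may come from the same animals, and whether those animals had sham surgery is unclear. With 1 library a group, no difference between groups could be tested. Intervals are exact at 95% and cover counting error only, and higher and lower describe these libraries.

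The thick ascending limb takes up sodium, potassium and chloride through Slc12a1. Potassium returns to the lumen through Kcnj1, sodium leaves through the basolateral sodium pump (with the subunits Atp1b1 and Fxyd2), and chloride leaves on the same side. The wall lets ions but little water pass, which dilutes the tubular fluid and makes the medulla salty. The segment secretes uromodulin (Umod), the most abundant protein of normal urine. The medullary stretch works at low oxygen beside the straight proximal tubule, whereas the cortical stretch reabsorbs calcium and magnesium and responds to parathyroid hormone.

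The uninjured GFP positive library held 202 among 3508, a share of 5.76% (5.01 to 6.58). After injury there were 58 among 3012 (1.93%, 1.47 to 2.48) at 64 h and 20 among 3202 (0.625%, 0.382 to 0.963) at 96 h. At 28 d, 51 of 3299 nuclei were members (1.55%, 1.15 to 2.03). The GFP negative library held 201 among 3338 nuclei, or 6.02% (5.24 to 6.88). The 3 injury intervals lie below both uninjured ones. Among medullary and cortical nuclei together, the medullary share was 45.9% (41.2 to 50.7) in the uninjured GFP positive library. Its value was 20.2% (15.7 to 25.3) 64 h after injury, 26.7% (17.1 to 38.1) after 96 h and 19.7% (15.03 to 25.1) after 28 d. The rule needs UMIs of single genes, so a share also falls where nuclei hold fewer of these. In the uninjured, 64 h, 96 h and 28 d GFP positive libraries a member held a median of 1234.5, 1106.5, 469 and 806 UMIs in turn, and in the GFP negative library 1218. After every barcode had been thinned to 500 UMIs, the GFP positive shares were 4.45%, 1.56%, 0.365% and 0.961% in order of time. The members' summed UMIs, and with them the precision, ran 369483, 72411, 10468 and 58993 in the same order, against 262087 in the GFP negative library. Fewer nuclei of this type and lower levels of the rule's genes in each nucleus cannot be told apart here.

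**Figure D1:**
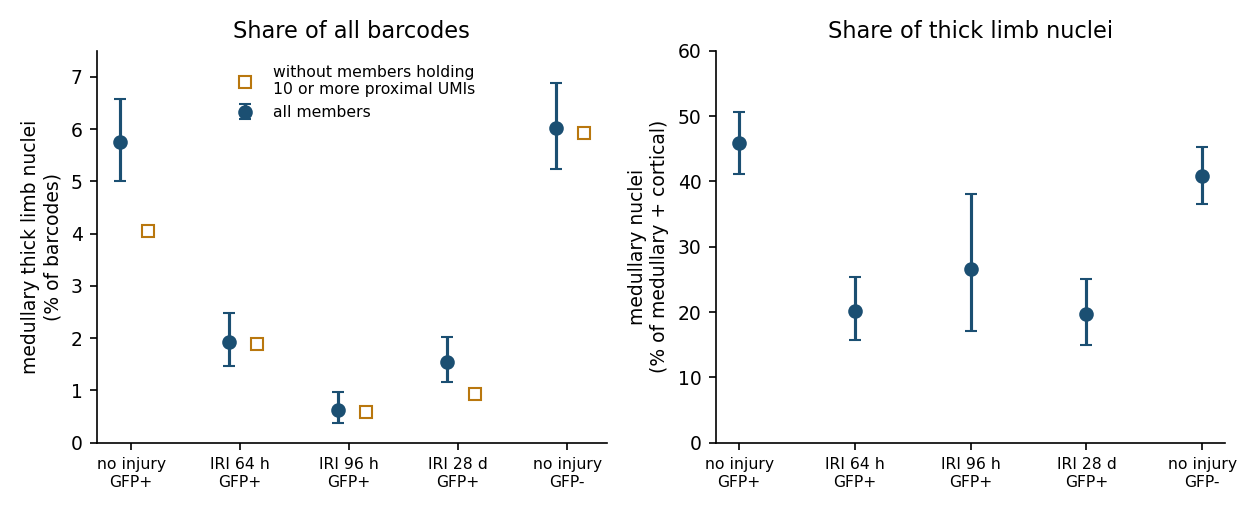
Members as a share of all barcodes (left) and of medullary plus cortical nuclei (right), in percent, for each library; bars are exact 95% intervals of counting error. Both shares are lower in the 3 injury libraries than in either library without injury, and open squares show the shares without members that hold many proximal tubule UMIs.

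The genes of the rule had different levels in the members. Levels are in counts-per-million units (CPM), a gene's UMIs over the members' total without the 12 rule genes. In the uninjured, 64 h, 96 h and 28 d GFP positive libraries Slc12a1 had 9250, 11964, 10855 and 6335 CPM in turn, and in the GFP negative library 13567 CPM. Sgcz, whose product belongs to the sarcoglycan complex, was found in 93.1% of uninjured GFP positive members but in 37.9% 64 h after injury, 35% after 96 h and 82.4% after 28 d. Ptger3, a prostaglandin E2 receptor, was found in 55.9%, 77.6%, 45% and 39.2% of members in the same order. Sgcz was thus the most widely found of the rule's 5 medullary genes without injury, and Ptger3 was found more widely than Sgcz at 64 h. In all libraries together 20 members held exactly 2 Slc12a1 UMIs, and 61 nuclei that met every other condition held 1. The medullary sum led by a single UMI in 91 members, of which 21 of 58 were at 64 h, 11 of 20 at 96 h and 22 of 51 at 28 d, and 69 nuclei had equal sums above 0.

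Markers that the rule did not use went partly with the label. Umod was found in 49.5%, 67.2%, 35% and 74.5% of members in the uninjured, 64 h, 96 h and 28 d GFP positive libraries in turn, and in 58.7% of GFP negative ones. Cortical markers outside the rule (Cldn19, Cldn14, Kcnj10, Pth1r, Ramp3 and Thsd4) summed to 187 CPM in GFP positive medullary nuclei without injury and 677 CPM in cortical ones. In the GFP negative library the sums were 234 CPM in medullary and 951 CPM in cortical nuclei. At 64 h it was 421 CPM in medullary and 832 CPM in cortical nuclei, and at 28 d 257 and 740 CPM. At 96 h these markers did not set the members apart, with 11 UMIs and 1066 CPM (532 to 1908) in medullary and 1214 CPM (831 to 1714) in cortical nuclei, so the label is not borne out by them at that time. Of those 11 UMIs 10 stood in members that led by 1 UMI. Cldn19, a claudin for divalent cations, did not follow the division: it was higher in medullary nuclei of 3 libraries, with 82.4 and 50.2 CPM in the uninjured GFP positive one, and lower in those of 96 h (96.9 and 190 CPM) and 28 d (51.4 and 80.3 CPM). Thsd4 (367 CPM) and Pth1r (247 CPM) made up most of the sum in uninjured GFP positive cortical nuclei. Cldn14 had at most 1 UMI in either type of any library. Kcnj10 was higher in medullary nuclei of the uninjured GFP positive library (19.2 and 10.9 CPM). It was lower in those of the GFP negative library (42.9 and 50.4 CPM), 64 h (14.0 and 24.5 CPM) and 28 d (0 and 38.0 CPM).

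A large part of the members in 2 libraries carried proximal tubule transcripts. On a list of 20 proximal tubule markers, 60 of 202 members (29.7%) held at least 10 UMIs in the GFP positive library without injury, and 20 of 51 (39.2%) at 28 d. By contrast, 1 of 58 members did so at 64 h, 1 of 20 at 96 h and 3 of 201 in the GFP negative library. The list summed to 12352, 1697, 2229 and 12738 CPM in the uninjured, 64 h, 96 h and 28 d GFP positive libraries in turn, and to 1594 CPM in GFP negative members. Of the 20 markers 1 had no UMI at 64 h and 10 had none at 96 h, while each was found in the other libraries. In the GFP positive library without injury, the 60 nuclei held 4052 of the 4499 proximal UMIs, with a median of 3269.5 UMIs in all against 1019 in the other 142. The cortical nuclei had the like shares, 33.6% in that library and 33.7% at 28 d. Barcodes holding a pair of nuclei and free proximal RNA were not told apart, and no doublet caller was used. A limit of 10 UMIs was set after these counts had been seen. Counts of called genes, most lists and the leading genes of each comparison below are therefore also given for members under this limit, and a value with no such mention is for all members. Of members under the limit the uninjured, 64 h, 96 h and 28 d GFP positive libraries held 142, 57, 19 and 31, and the GFP negative library 198. The part of proximal RNA in a difference beyond that was not tested.

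**Figure D2:**
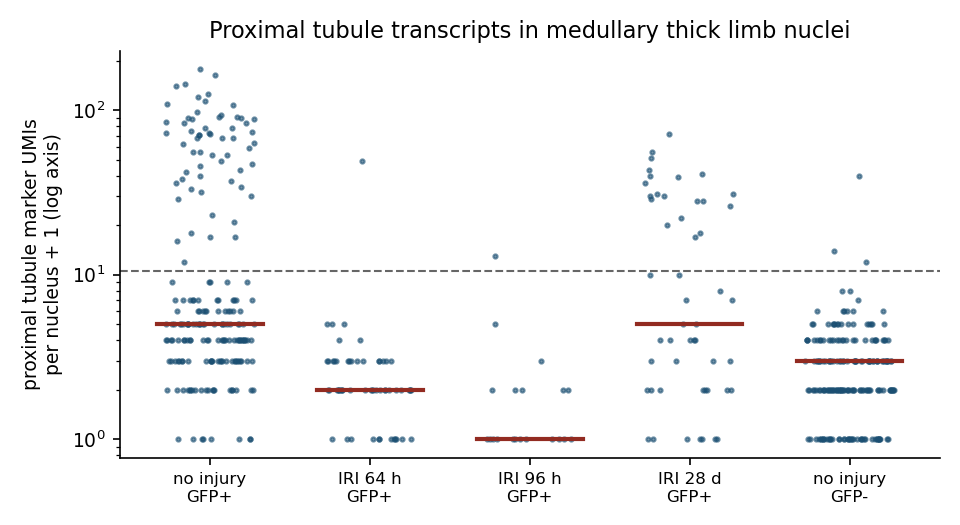
Summed UMIs of 20 proximal tubule markers plus 1 in each medullary thick limb nucleus (log axis), by library; red lines are medians and the dashed line separates nuclei with at least 10 UMIs. A separate upper cloud of nuclei stands above the line without injury (60 of 202) and at 28 d (20 of 51) in GFP positive libraries, and few nuclei do elsewhere.

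Medullary and cortical nuclei stand in every library, so their difference was tested over the 5 libraries. The test was edgeR's quasi-likelihood test on UMIs summed per library and type, with the library as block. The 12 rule genes were left out, but the division itself rests on genes of the same nuclei, so the test speaks of other genes given this division. Of 4494 genes tested, 97 (2.16%) were higher in medullary nuclei and 142 (3.16%) were lower at a Benjamini-Hochberg adjusted p under 0.05. Of these 239, 49 were higher and 82 were lower in all 5 libraries. The count depends on the libraries: it was 96 without the GFP negative library and 101 without the uninjured GFP positive one. Since both uninjured libraries may come from the same animals, they were also summed to 1 block, which gave 133.

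Of 14 tested genes of salt transport, 4 rose in medullary nuclei and 1 fell. Slc4a7, a sodium bicarbonate cotransporter, had 102 CPM in medullary and 30.6 CPM in cortical GFP positive nuclei without injury, and 195 and 60.5 CPM in the GFP negative library. In the injury libraries it had 112 CPM in medullary and 17.5 CPM in cortical nuclei at 64 h, 96.9 and 37.9 CPM at 96 h, and 85.6 and 46.5 CPM at 28 d. The 96 h values rest on 1 UMI each. Its medullary level was higher in every library, by 1.65 on the log2 scale (SE 0.29). Kcnt1, a sodium-activated potassium channel (1.44), and Slc16a7, a monocarboxylate carrier (0.78, higher in 4 of 5 libraries), also rose. The edgeR adjusted p was 1.1e-06 for Slc4a7, 0.00027 for Kcnt1 and 5.3e-05 for Slc16a7; that of Slc16a7 was 0.076 without the uninjured GFP positive library. The pump subunit Atp1b1 did not pass, with a log2 fold change of 0.32 (edgeR adjusted p = 0.21).

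**Figure D3:**
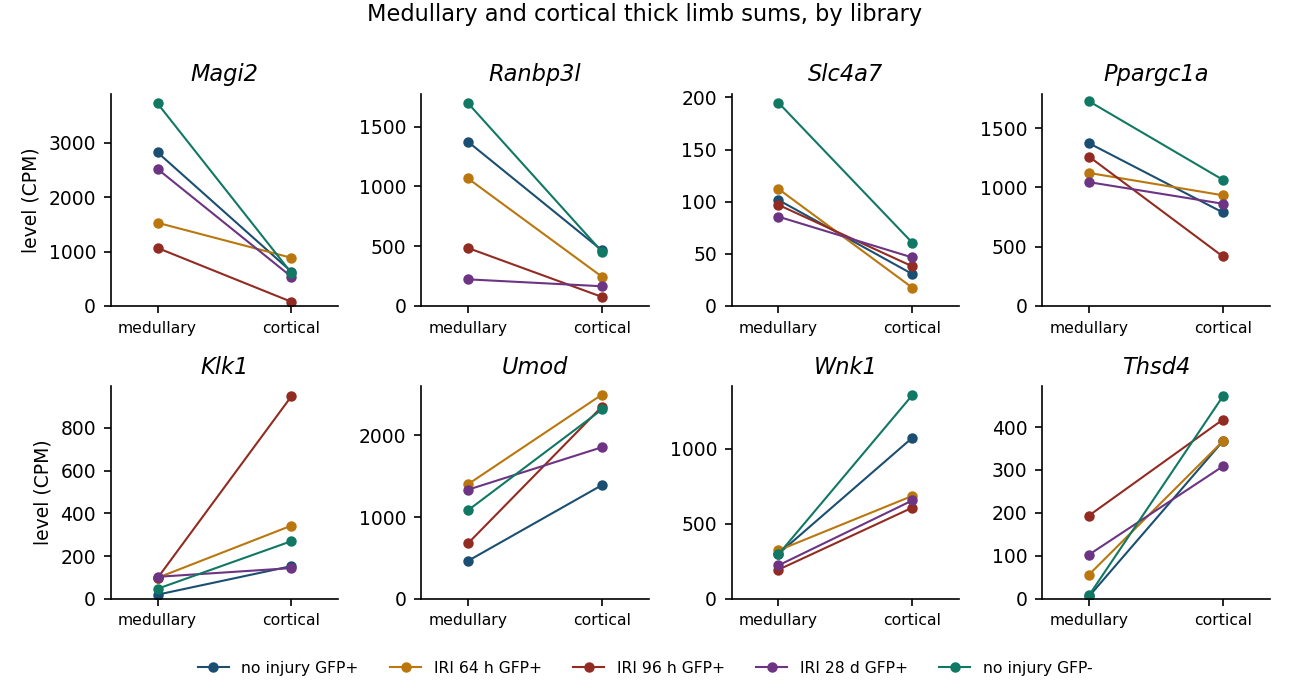
Levels in CPM of 8 genes in medullary (left point) and cortical (right point) thick limb nuclei; each line is 1 library. Magi2, Ranbp3l, Slc4a7 and Ppargc1a fall from left to right in all 5 libraries, and Klk1, Umod, Wnk1 and Thsd4 climb in all 5.

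Umod was lower in medullary nuclei. The gene (chromosome 7, 119462711 to 119479282) had 1084 CPM in medullary and 2318 CPM in cortical GFP negative nuclei, and 464 CPM and 1392 CPM in GFP positive nuclei without injury. At 64 h it had 1403 CPM in medullary and 2500 CPM in cortical nuclei, at 96 h 678 and 2353 CPM, and at 28 d 1335 and 1855 CPM. The medullary level was the lower one each time (log2 fold change -1.12, SE 0.14, edgeR adjusted p = 3.0e-13). Kng2, a kininogen gene (-0.79), and Tmprss2, a membrane serine protease (-0.80), also fell in all 5 libraries, so 3 of 7 tested members of the secreted list fell. Sorl1, a sorting receptor (0.65), was the member that rose. Tmprss2 did not pass without the GFP negative library (edgeR adjusted p = 0.12). Sorl1 did not pass without that one (0.20), without the uninjured GFP positive one (0.23) or without the 28 d one (0.076). Klk1, which encodes the kallikrein that acts on kininogens and stands outside that list, fell by 2.33.

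The genes with the largest folds among those of 1 direction in every library had varied roles. Thsd4, an extracellular matrix protein, was nearly absent from uninjured medullary nuclei, with 5.49 CPM in GFP positive and 7.80 CPM in GFP negative ones, against 367 and 472 CPM in the cortical nuclei of these libraries. In the injury libraries Thsd4 had 56.1 CPM in medullary and 367 CPM in cortical nuclei at 64 h. It had 194 and 417 CPM at 96 h, and 103 and 309 CPM at 28 d. The gap was narrower there, but these medullary values rest on 4, 2 and 6 UMIs in turn. Of these UMIs 2, 2 and 4 stood in members that led by 1 UMI. Over all libraries Thsd4 fell by 4.13 on the log2 scale (SE 0.28, edgeR adjusted p = 3.8e-44). Next came Shd (-4.05), the secreted Wnt antagonist Sfrp1 (-3.88), the neuronal adhesion genes Nrxn3 (-3.16) and Cadm2 (-3.09), Tmem52b (-2.80) and the immediate early gene Ier3 (-2.63). Gm12216, Mfsd7b and the sodium-glucose cotransporter Slc5a1 followed at -2.50, -2.24 and -2.06. In the other direction stood the scaffold Magi2, with 2822 CPM in GFP positive medullary nuclei without injury and 629 CPM in cortical ones, and 3722 and 605 CPM in the GFP negative library. It rose by 2.00 (SE 0.15, edgeR adjusted p = 1.4e-39). A single nucleus held 151 of the 955 Magi2 UMIs of the GFP negative members. Magi2 is known from podocytes, and the 7 other podocyte markers of the fixed list summed to 52.2 CPM in GFP positive and 148 CPM in GFP negative members without injury. The heparan sulphate proteoglycan Gpc5 rose by 1.92, the microtubule protein Map1b by 1.84, Ubash3b by 1.76, Ranbp3l by 1.67, the anoctamin Ano4 by 1.62, Abca2 by 1.39, Fam43a by 1.37 and Caskin2 by 1.36. Caskin2 did not pass without the GFP negative library (edgeR adjusted p = 0.063) or the uninjured GFP positive one (0.36). Scel, which encodes sciellin, had a larger fold (3.02) but no UMI in medullary nuclei at 96 h; it is named after its value was seen.

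**Figure D4:**
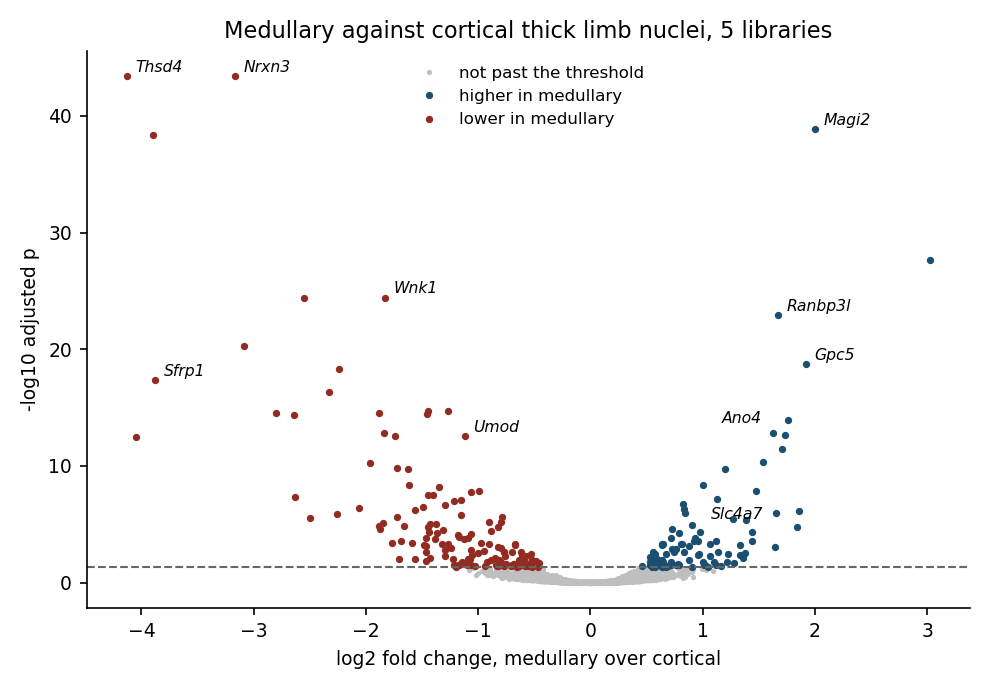
Log2 fold change of medullary over cortical nuclei (x) and -log10 of edgeR's adjusted p (y) for 4494 genes; the dashed line marks 0.05. The 142 genes lower in medullary nuclei reach larger folds (Thsd4, -4.13) than the 97 higher ones, and Wnk1 and Umod stand on the lower side.

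Hormone response and kinase genes that changed were lower in medullary nuclei. Among 19 tested hormone receptor and cyclic AMP genes, 5 fell and none rose. They were Pth1r, the parathyroid hormone receptor (-1.74, lower in 4 of 5 libraries), Gcgr, the glucagon receptor (-1.73, lower in 5), the phosphodiesterases Pde7b (-1.06) and Pde4d (-0.48), and the growth hormone receptor Ghr (-0.46, lower in 3 of 5). Of 8 tested calcium and magnesium genes 4 fell, namely Pth1r, the sodium-calcium exchanger Slc8a1 (-1.16, with no UMI of either type at 96 h), the vitamin D receptor Vdr (-0.95) and the calcium pump Atp2b1 (-0.70). Atp2b1 did not pass without the nuclei rich in proximal UMIs (edgeR adjusted p = 0.068), nor without the GFP negative, 64 h, 96 h or 28 d library (0.28, 0.11, 0.050 and 0.13 in turn). Without the GFP negative library edgeR's adjusted p was also 0.27 for Vdr, 0.55 for Pde4d and 0.76 for Ghr. Without the uninjured GFP positive one it was 0.091 for Slc8a1 and 0.20 for Ghr. Pde4d reached 0.15 without the 64 h and 0.085 without the 96 h library, and Ghr 0.065 without the 96 h one. The kinase Wnk1, an upstream regulator of the salt cotransporters, had 299 CPM in medullary and 1073 CPM in cortical GFP positive nuclei without injury, and 296 and 1357 CPM in the GFP negative library. It fell by 1.83 (SE 0.17, edgeR adjusted p = 3.8e-25), and it was the 1 of 9 tested genes of its kinase list that changed.

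Transcription and metabolism genes that changed were mostly higher in medullary nuclei. Ppargc1a, a coactivator of mitochondrial biogenesis, rose by 0.56 (SE 0.14, edgeR adjusted p = 0.0026) and was higher in 5 of 5 libraries. Its medullary and cortical levels were 1373 and 789 CPM in GFP positive nuclei without injury. The nuclear receptor Esrrb (0.58) and Pax2 (0.76) rose, each higher in 4 libraries, and Tfcp2l1 fell (-0.67, lower in 5), which made 3 higher and 1 lower of 23 transcription factors tested. Nfat5, the tonicity-responsive factor, rose by 0.53 in all 5 libraries. The glycolytic genes Hk1 (0.93), Pfkp (0.83) and Eno1 (1.10) rose, 3 of 10 tested. Of 43 respiratory chain genes 1, Atp5g1, rose (0.64), and no citric acid cycle gene of 18 passed. The median log2 fold change was 0.26 over the respiratory chain genes, 0.34 over the glycolytic ones and -0.01 over all genes tested. At the tight junction Magi3 rose (1.00) and Magi1 fell (-0.99). Cldn10, a claudin with a part in sodium transport between cells, rose by 0.62 (SE 0.19, edgeR adjusted p = 0.024) and was higher in 4 of 5 libraries. These moderate folds depend on single libraries. Without the GFP negative library edgeR's adjusted p was 0.81 for Cldn10, 0.26 for Esrrb, 0.14 for Pax2, 0.17 for Nfat5, 0.36 for Pfkp, 0.074 for Tfcp2l1 and 0.43 for Atp5g1. Without the uninjured GFP positive library it was 0.14 for Ppargc1a, 0.62 for Esrrb, 0.11 for Pax2, 0.21 for Nfat5, 0.099 for Hk1, 0.20 for Pfkp, 0.062 for Tfcp2l1, 0.21 for Atp5g1 and 0.090 for Cldn10. Eno1 reached 0.11 without the 64 h library and 0.052 without the 96 h one. Cldn10 reached 0.15 without the 96 h library and 0.067 without the 28 d one, and Atp5g1 0.086 without 64 h and 0.061 without 96 h.

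Promoters are shown for Umod, Cldn10 and Ranbp3l, picked among the changed genes because they hold a piece of the HNF1 motif. HNF1 factors, which drive many kidney epithelial genes, are known to act on the Umod promoter. The sequences are RefSeq's (GRCm38.p6), 250 bases before to 50 after a start site, read 5′ to 3′ on the gene's strand. Capitals mark GTTAAT or its reverse complement ATTAAC, the core hexamer of the HNF1 binding motif, at -202, -15 and -158 from the start.
Umod, chr7:119479213-119479512, minus strand: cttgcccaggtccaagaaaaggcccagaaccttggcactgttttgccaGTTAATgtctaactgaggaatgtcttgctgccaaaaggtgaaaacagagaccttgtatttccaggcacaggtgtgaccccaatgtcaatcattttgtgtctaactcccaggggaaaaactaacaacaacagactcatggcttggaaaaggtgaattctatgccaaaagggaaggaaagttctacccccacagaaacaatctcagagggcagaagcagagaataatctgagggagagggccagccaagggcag
Cldn10, chr14:118787621-118787920, plus strand: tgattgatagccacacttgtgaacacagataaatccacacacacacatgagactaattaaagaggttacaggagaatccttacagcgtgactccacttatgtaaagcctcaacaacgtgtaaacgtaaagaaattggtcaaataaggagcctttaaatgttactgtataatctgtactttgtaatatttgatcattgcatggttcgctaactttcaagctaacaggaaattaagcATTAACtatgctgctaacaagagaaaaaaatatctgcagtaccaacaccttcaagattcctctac
Ranbp3l, chr15:8967699-8967998, plus strand: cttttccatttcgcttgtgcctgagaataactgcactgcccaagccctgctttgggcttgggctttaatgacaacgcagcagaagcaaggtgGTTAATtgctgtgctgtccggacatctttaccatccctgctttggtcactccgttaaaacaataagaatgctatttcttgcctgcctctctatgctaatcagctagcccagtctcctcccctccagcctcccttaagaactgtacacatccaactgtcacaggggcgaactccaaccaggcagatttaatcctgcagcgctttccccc
The hexamer, searched on both strands, stood in 7.1% of the 32851 promoters of the table. It stood in at least 1 promoter of 2228 of all 27025 genes there (8.24%). By the same count, 9 of 73 higher in medullary nuclei (12.3%), 7 of 111 lower ones (6.31%) and 192 of 3456 tested (5.56%) held it. Cldn10 has 2 start sites in the table, of which 1 holds it. A match is a description of these letters only.

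The first comparison of libraries set GFP positive against GFP negative members without injury. Genes called are those at least 2-fold apart on the log2(CPM + 10) scale with at least 20 UMIs over both sums. Of 5400 measured genes 483 (8.94%) were higher and 191 (3.54%) lower in GFP positive members. Most of the named higher genes belong to the proximal tubule, such as the sulphate transporter Slc13a1, with 1246 CPM in GFP positive and 31.2 CPM in GFP negative members, the endocytic receptor Lrp2 (637 and 19.5 CPM) and its adaptor Dab2 (2150 and 85.7 CPM). Their ratios were 40.0, 32.7 and 25.1 in turn, and 4.18, 5.22 and 5.00 without the nuclei rich in proximal UMIs. Of the 20 proximal markers 18 were called higher. Without the nuclei rich in proximal UMIs, 78 of 3790 genes (2.06%) were higher and 129 (3.4%) lower, of which 36 and 60 were called in both. The proximal list then had 2859 CPM in GFP positive and 1377 CPM in GFP negative members, 2.08 times as much (1.80 to 2.40). Umod had 464 CPM in GFP positive and 1084 CPM in GFP negative members, a ratio of 0.43 (0.35 to 0.52), and of 0.63 (0.50 to 0.79) without those nuclei. The salt transport list had a ratio of 0.82 (0.77 to 0.86) in all members and 1.10 (1.03 to 1.18) without them. Among the lower genes Phactr1 had 10.98 CPM in GFP positive and 203 CPM in GFP negative members, and Bmpr1b, a BMP receptor, 8.24 and 93.5 CPM. The label names the GFP negative nuclei as other than nephron, and their share of members, 6.02%, was within the counting error of the GFP positive one.

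At 64 h after injury the members had higher levels of tubule injury genes than those without injury. Of 4136 measured genes 270 (6.53%) were at least 2-fold higher and 587 (14.2%) lower. Without the rule genes the sums held 71297 UMIs at 64 h and 364225 without injury. A gene could thus reach 20 UMIs in uninjured members alone and be called lower without any UMI at 64 h. These counts therefore depend on depth, and its part in them was not tested. Without the nuclei rich in proximal UMIs, 146 of 2124 (6.87%) were higher and 170 (8%) lower, with 103 and 93 called in both. The named lower genes, such as Cyp7b1, Keg1 and Slc17a3, are mostly of the proximal tubule. The 30-gene tubule injury list summed to 3773 CPM at 64 h and 1255 CPM without injury, a ratio of 3.01 (2.58 to 3.5). That ratio was 3.82 (3.13 to 4.66) without those nuclei and 2.95 in cortical nuclei. Of its 9 measured members 6 were higher and 1, the ferroxidase gene Cp, had no UMI at 64 h against 60.4 CPM without injury. With 3 counts as the limit for a gene without UMIs, 42.1 CPM at 64 h, a 2-fold fall of Cp is not established. Spp1, which encodes osteopontin, accounted for much of the list's sum, with 131 UMIs and 1837 CPM in 72.4% of nuclei at 64 h against 100 UMIs and 275 CPM in 29.7% without injury. Its ratio was 6.69 (5.12 to 8.77), and 8.10 (5.60 to 12.0) without proximal-rich nuclei. S100a11, a calcium-binding protein, had 323 CPM at 64 h and 54.9 CPM without injury, a ratio of 5.87, or 9.14 without proximal-rich nuclei. Its relative S100a6 had 210 and 16.5 CPM, and without those nuclei 229 CPM at 64 h and no UMI without injury. The surface protein Cd24a had 210 and 57.7 CPM, and the annexin Anxa2 140 and 43.9 CPM. With 58 nuclei these rest on 10 to 23 UMIs each at 64 h.

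Umod was higher at 64 h, with 100 UMIs and 1403 CPM against 169 UMIs and 464 CPM without injury. The ratio was 3.02 (2.34 to 3.89), and 2.21 (1.66 to 2.93) without proximal-rich nuclei. Against the GFP negative library, at 1084 CPM, the 64 h level was nearer. The secreted list had a ratio of 2.44 (2.14 to 2.78), or 1.90 (1.64 to 2.19) without those nuclei. In cortical nuclei that list had a ratio of 2.05, and over all nuclei 1.99. Cytosolic ribosomal protein genes summed to 4657 CPM at 64 h and 2531 CPM without injury, a ratio of 1.84 (1.62 to 2.09) that was 1.85 without proximal-rich nuclei. Of 27 measured genes of that list 9 were higher and none lower. The ribosomal ratio was 1.63 in cortical nuclei and 2.19 over all nuclei, so neither rise was particular to the members. Pax8, a transcription factor of the kidney lineage, had 870 and 327 CPM, and Grhl2, a factor of epithelial barriers, 295 and 79.6 CPM. The metallothionein Mt1 had 295 and 52.2 CPM, a ratio of 5.65 that was 3.34 without proximal-rich nuclei, and the chaperone Hspa5 210 and 57.7 CPM. The heat shock and unfolded protein list as a whole had a ratio of 1.09 (0.85 to 1.38), with 2 of 11 measured members higher and 1 lower.

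Genes higher in medullary than in cortical nuclei went both ways at 64 h. Kcnt1 had 112 CPM at 64 h and 43.9 CPM without injury, Abca2 224 and 129 CPM, and Map1b 98.2 and 74.1 CPM. By contrast, Gpc5 had 168 and 412 CPM, and Ano4 210 and 351 CPM. Cldn10 had 6 UMIs and 84.2 CPM at 64 h against 118 UMIs and 324 CPM without injury, a ratio of 0.26 (0.093 to 0.58), and 0.18 (0.056 to 0.44) without proximal-rich nuclei. Among genes not named above as medullary, the angiogenic factor Vegfa had 112 and 404 CPM (0.28, 0.12 to 0.56; 0.14 without those nuclei), and Filip1l 56.1 and 335 CPM (0.17, 0.045 to 0.44). Magi2 had 1529 and 2822 CPM, a ratio of 0.54 (0.44 to 0.66) that was 0.34 (0.27 to 0.42) without those nuclei. In cortical nuclei Cldn10 had a ratio of 0.72, Vegfa of 0.94 and Magi2 of 1.41; whether the stretches differ in this was not tested. The salt transport list was nearly equal in all members (1.06, 0.96 to 1.16) and lower without proximal-rich nuclei (0.79, 0.71 to 0.87). Ppargc1a had 1122 CPM at 64 h and 1373 CPM without injury, and Kcnj1 140 and 233 CPM. Without proximal-rich nuclei Ppargc1a had 1175 and 1983 CPM, and Kcnj1 153 and 339 CPM. Gclc, the enzyme that limits glutathione synthesis, had 828 CPM at 64 h and 568 CPM without injury in all members. Without proximal-rich nuclei it had 854 and 122 CPM, a ratio of 7.03 (4.11 to 12.5).

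Mrap2 and Mid1 had the highest ratios at 64 h. Mid1, an X-linked ubiquitin ligase of microtubules, had 296 UMIs in 55 of 58 nuclei (4152 CPM) at 64 h against 81 UMIs in 48 of 202 nuclei (222 CPM) without injury. Its ratio was 18.7 (14.6 to 24.2) in members, 16.1 in cortical nuclei and 17.9 over all nuclei of the libraries, so the difference was not particular to the members. In mice Mid1 spans the boundary of the pseudoautosomal region. Mrap2, an accessory protein of melanocortin receptors, had 617 CPM at 64 h, in 50% of members, against 19.2 CPM in 2.97% without injury. Its ratio was 32.1 (14.3 to 84.5) in members, 12.7 in cortical nuclei and 12.0 over all nuclei. Naaladl2 had 463 and 57.7 CPM, Unc13b, a vesicle priming gene, 266 and 27.5 CPM, and Kif23, a kinesin of cell division, 196 and 19.2 CPM (a ratio of 10.2, or 6.20 without proximal-rich nuclei).

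At 96 h there were 20 members with 10468 UMIs, and 1 UMI stood for 96.9 CPM. Of 3627 measured genes 511 (14.1%) were at least 2-fold higher and 1444 (39.8%) lower, and 3 counts, taken as the limit for a gene at 0 UMIs, are 291 CPM here. Without the rule genes the sums held 10318 UMIs at 96 h and 364225 without injury. A gene could thus reach 20 UMIs in uninjured members alone, and it was then called lower at 0 UMIs. These counts therefore depend on depth, and its part in them was not tested. Scaling by TMM (trimmed mean of M-values) instead moved all log2 ratios by -0.39, and 15.5% in place of 26.1% of the called genes were then higher. Without the nuclei rich in proximal UMIs, 161 of 1497 genes (10.8%) were higher and 462 (30.9%) lower. Wfdc2, a secreted protease inhibitor of distal tubules, had 9 UMIs in 7 nuclei (872 CPM) at 96 h against 65.9 CPM without injury, a ratio of 13.2 (5.41 to 29.5). Of the 8 Pth1r UMIs 5 stood in 1 nucleus. The tubule injury list had a ratio of 2.24 (1.48 to 3.26), and 2.65 (1.67 to 4.05) without proximal-rich nuclei. For the ribosomal protein list the ratio was 2.53 (1.94 to 3.25), or 2.30 (1.69 to 3.07) without them, and for the transcription factor list 0.63 (0.52 to 0.75), or 0.58 (0.47 to 0.70). Over all nuclei the injury, ribosomal and transcription factor lists had 3404, 7118 and 9444 CPM at 96 h. Without injury they had 1252, 2704 and 15349 CPM, so the directions were the same there. Rabgap1l, a regulator of membrane traffic, had no UMI at 96 h against 799 CPM in 68.3% of members without injury. Mid1 had 194 CPM at 96 h and 222 CPM without injury, unlike at 64 h.

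At 28 d, when creatinine was 0.144 mg/dL (0.122 without injury), the summed salt transport and citric acid cycle genes of the members were lower than without injury. Of 4012 measured genes 214 (5.33%) were at least 2-fold higher and 427 (10.6%) lower. These counts also depend on depth, since the sums without the rule genes held 58406 UMIs at 28 d and 364225 without injury. Its part in them was not tested. Without the nuclei rich in proximal UMIs, 156 of 1657 (9.41%) were higher and 329 (19.9%) lower, with 32 and 98 called in both. The salt transport list summed to 4760 CPM at 28 d and 6729 CPM without injury, a ratio of 0.71 (0.62 to 0.80), and 0.61 (0.50 to 0.73) without those nuclei. Its cortical ratio was 0.95. Of 14 measured members 3 were called lower, Slc9a3 and Bsnd among them, and 1, Kcnt1, higher. The sodium-proton exchanger Slc9a3 had 5 UMIs and 85.6 CPM at 28 d against 128 UMIs and 351 CPM without injury (0.24, 0.078 to 0.58). The pump subunit Atp1b1 had 976 and 1477 CPM (0.66, 0.49 to 0.87), and its regulator Fxyd2 925 and 1510 CPM (0.61, 0.45 to 0.81). The citric acid cycle list had a ratio of 0.74 (0.60 to 0.90), or 0.59 (0.41 to 0.82) without those nuclei, with 4 of 16 measured members lower and none higher. The respiratory chain list had 0.88 (0.77 to 1.00), or 0.80 (0.65 to 0.98), with 8 of 42 lower and 2 higher. Other energy lists had intervals that held 1, namely glycolysis (0.85, 0.65 to 1.08), fatty acid oxidation (0.98, 0.81 to 1.18) and mitochondrially encoded transcripts (0.97, 0.72 to 1.29). Sdha, of complex II, had 34.2 and 137 CPM, and Cox5b, of complex IV, 34.2 and 159 CPM, each from 2 UMIs at 28 d.

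Of the genes higher in medullary than in cortical nuclei, some were lower at 28 d and others were not. Gpc5 had 445 CPM at 28 d and 412 CPM without injury, Map1b 68.5 and 74.1 CPM, and Cldn10 342 and 324 CPM. Without proximal-rich nuclei the ratio was 0.69 (0.31 to 1.36) for Gpc5, 1.66 (0.30 to 6.04) for Map1b and 0.75 (0.29 to 1.64) for Cldn10. Ranbp3l had 13 UMIs in 17.6% of members (223 CPM) at 28 d against 500 UMIs in 79.2% (1373 CPM) without injury. The ratio was 0.16 (0.086 to 0.28), and 0.13 (0.048 to 0.29) without proximal-rich nuclei; in cortical nuclei it was 0.35 and over all nuclei 0.31. Esrrb had 205 and 442 CPM (0.46, 0.24 to 0.83; 0.30 without proximal-rich nuclei), and Pax2 120 and 340 CPM (0.35, 0.14 to 0.75). Magi2 had 2517 and 2822 CPM, but 88 of its 147 UMIs at 28 d stood in 1 nucleus, and without proximal-rich nuclei the levels were 1610 and 4554 CPM (0.35, 0.24 to 0.50). Isyna1, the first enzyme of inositol synthesis, had no UMI at 28 d against 110 CPM without injury. The limit of 3 counts is 51.4 CPM at this depth.

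Umod and some other genes were higher at 28 d. Umod had 78 UMIs in 74.5% of members (1335 CPM) at 28 d against 169 UMIs in 49.5% (464 CPM) without injury, a ratio of 2.88 (2.172 to 3.79), and 3.16 (2.19 to 4.49) without proximal-rich nuclei. The uninjured GFP negative members had 1084 CPM, nearer to the 28 d level, and the ratio in cortical nuclei was 1.33. The cytokine Il34 had 394 and 173 CPM (2.28, 1.348 to 3.72). Spp1 had 514 and 275 CPM in all members (1.87, 1.20 to 2.84), and 1104 and 243 CPM without proximal-rich nuclei (4.54, 2.61 to 7.77). The tubule injury list had a ratio of 1.27 (1.00 to 1.59) in all members and 2.88 (2.13 to 3.85) without those nuclei, where it rests on 31 nuclei. Kcnt1 had 223 and 43.9 CPM (5.07, 2.24 to 11.2; 2.70, 0.46 to 11.2, without those nuclei) and Naaladl2 291 and 57.7 CPM. Mid1 again had more UMIs, 2003 and 222 CPM, with a like ratio over all nuclei (9.01 in members, 10.4 over all). Slc8a1 had the largest ratio, 20.8, but 37 of its 40 UMIs at 28 d stood in 1 nucleus, and without proximal-rich nuclei the ratio was 1.44 (0.030 to 12.9). Markers of the macula densa, the sensor cells set in the thick limb, had few UMIs in the members of every library. The 6 genes of that list had 14 UMIs (240 CPM) at 28 d, 11 of them of Robo2, against 4 UMIs (10.98 CPM) without injury, a ratio of 21.8 (6.85 to 91.1). Without proximal-rich nuclei it was 5.39 (0.79 to 31.9), on 3 and 4 UMIs. At 64 h there were 9 UMIs (11.5, 3.21 to 51.1, and 5.37, 1.498 to 23.8, without those nuclei), at 96 h none, and in GFP negative members 19 UMIs (74.1 CPM). In cortical nuclei the ratio was 0.81 at 64 h and 0.75 at 28 d. Of the 6 markers 4 had no UMI at 64 h, 3 had none at 28 d and 4 had none without injury. The part of these markers in the results was not tested.

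**Figure D5:**
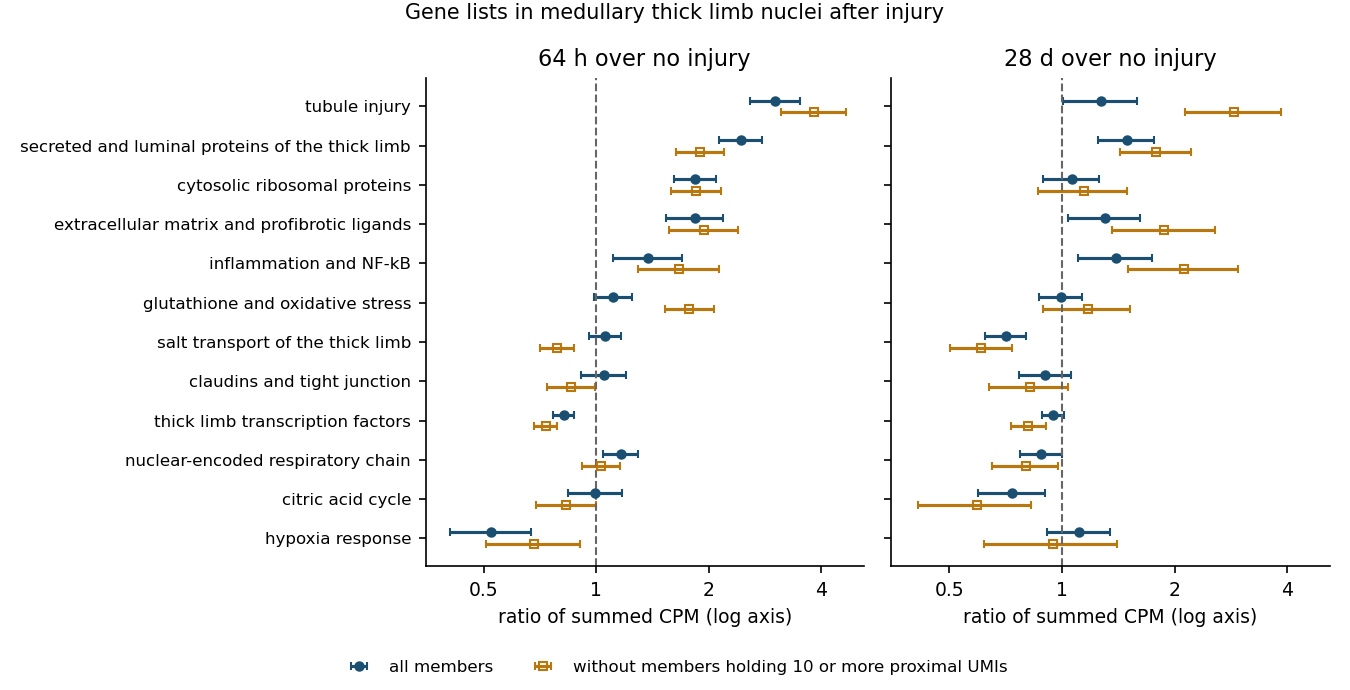
Ratio of summed CPM at 64 h (left) and 28 d (right) to members without injury for 12 gene lists (log axis), for all members (filled) and without members holding at least 10 proximal tubule UMIs (open); bars are exact 95% intervals of counting error. Tubule injury genes stand to the right of 1 at 64 h (3.01), salt transport genes to the left at 28 d (0.71), and the tubule injury ratio at 28 d moves to 2.88 without the proximal-rich nuclei.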

How the data were processed

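Nuclear RNA was measured with 10x Genomics 3' droplets. The deposited files hold UMI counts per gene and barcode, which the authors made on the mm10 build; the submitters' processing notes name Cell Ranger 2.1, STAR 2.5.1b and bcl2fastq 2.17. The design text names a pre-mRNA reference. Counts were used as deposited, without the authors' merging or cell types. The members, the gene lists and the tests were chosen with earlier results of these data known.

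UMIs were summed over members and divided by the sum's total without the 12 rule genes (CPM). Ratios carry exact conditional Poisson intervals. The log2 ratios used a pseudocount of 10 CPM, and genes needed 20 UMIs over both sums. Groups hold 1 library each, so p-values exist only for medullary against cortical sums (edgeR 4.0.16, R 4.3.3, quasi-likelihood test with TMM factors, filterByExpr and library as block). The SE given with a log2 fold change is its absolute value over the square root of the test's F statistic. It restates the test and is not a separate measure of spread between libraries. In simulated data for this test, 40.7% of 86 genes changed by 1 log2 unit and 98.8% of 84 changed by 2 were recovered, among 4055 genes. There were 4 false calls. The simulated spread between libraries was fixed beforehand and was wider than the fitted one, a biological coefficient of variation of 0.107. These shares therefore do not measure the recovery in the real data. DESeq2 1.42.0 was an alternative. Named genes were the 12 of largest fold in each direction with 1 direction in every library, the 10 highest and lowest per library comparison, and called list members. Other genes named with values were chosen after these had been seen. Libraries shared at most 20 barcodes by pair, and no member. Libraries held 1922002 to 7153971 UMIs, and mitochondrial UMIs made up at most 0.134% of the members' UMIs in a library. Gene coordinates are from GENCODE mouse release M21 (mm10); 115 of 115 genes looked up were located. Some genes that the rule names are not reported here. Sums and figures were made with pandas 2.3.3, matplotlib 3.10.9, scipy 1.17.1 and numpy 2.4.6 under Python 3.11.15.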

Additional observations from a re-analysis of the deposited data

How the results depend on the processing

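The count of genes that differed between medullary and cortical nuclei was 239. It was 20 with no replicate block (library not in the design), 133 with the uninjured libraries summed to 1 block, 91 after nuclei were thinned to 500 UMIs and 83 with DESeq2. Leaving out 1 library gave 96 to 273. It was 224 without proximal-rich nuclei and 213 where the winning sum led by at least 2 UMIs. At an unadjusted p under 0.05 stood 634 genes. The share of members moved to 7.60% in the GFP negative library and 0.146% at 96 h with at least 400 genes per barcode. With every barcode thinned to 500 UMIs it was 4.45% without injury, 0.365% at 96 h and 0.961% at 28 d in GFP positive libraries. Without proximal-rich nuclei it was 4.05% without injury and 0.940% at 28 d, and with a lead of at least 2 UMIs 1.23% at 64 h, 0.281% at 96 h and 0.879% at 28 d.

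Called genes between GFP positive and GFP negative members were 674, and 387 at a pseudocount of 30 CPM, 262 at 50 UMIs, 169 with nuclei thinned and 207 without proximal-rich nuclei. At 64 h the count of 857 became 292 at 50 UMIs, 208 thinned, 316 without proximal-rich nuclei and 526 against the GFP negative library. At 96 h the count of 1955 became 568 at 50 UMIs, 623 without proximal-rich nuclei and 1196 against the GFP negative library. At 28 d the count of 641 became 359 at a pseudocount of 30 CPM, 123 at 50 UMIs and 224 thinned. At 96 h 3 alternatives were not run, since they left under 10 nuclei: a lead of 2 UMIs (9), 400 genes (2) and thinning (7).

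Leaving out proximal-rich nuclei and using the GFP negative library were chosen after seeing the data. Log2 ratios that changed sign without proximal-rich nuclei were those of Gclc (-0.70) and Ghr (-0.12) between GFP positive and GFP negative members, Slc13a1 (0.33) at 64 h, and Dab2 (0.31), Pde4d (0.39) and the median of the hypoxia list (0.12) at 96 h. Against the GFP negative library the sign changed at 64 h for Dab2 (1.53), Kcnt1 (-0.10), Ndrg1 (0.33), Pde4d (0.54), Slc13a1 (2.42), Slc34a1 (0.65) and the median of the proximal list (0.46), and at 96 h for Dab2 (1.65), Keg1 (0.55), Pde4d (0.93) and Slc34a1 (1.17). At 50 UMIs the hypoxia median at 96 h was 0.25. The cause of these changes was not tested. Of single genes between libraries, 231 values moved and 3270 did not. Of single genes between medullary and cortical nuclei, 743 kept their direction and call, 66 lost the call and 7 gained it. At 96 h 1 UMI stands for 96.9 CPM, which limits every value there.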
